A study of Capra hircus with 40 samples.

Results

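The endothelin system of the maturing goat uterus and ovary was read from 6 of the 30049 genes in a count table of bulk tissue RNA sequencing. The genes were taken by their NCBI gene number and goat RefSeq symbol. They were the ligand genes EDN1 (gene 102175912), EDN2 (102181465) and EDN3 (102174855), the receptor genes EDNRA (102174144) and EDNRB (102186699), and ECE1 (102189723), which encodes endothelin converting enzyme 1. EDN1 was chosen by its measured counts in the uterus, which were already known to be higher after day 1. Its values in any comparison that holds uterus libraries are therefore given as a description, without a test. The other genes were taken as the rest of the family.

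The samples were uterus and ovary tissue of female Jining gray goats, a Chinese breed. The labels name no treatment and no genetic change, and all goats shared 1 farm and its conditions. Both organs were collected at day 1 and at months 2, 4 and 6 after birth, a span that the study describes as sexual maturation. Each of the 8 groups held 5 libraries, which are called below by their organ, age and individual.

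Endothelins are short peptides cut from larger precursors. ECE1, a metalloprotease of the cell surface and of secretory vesicles, makes the last cut from the inactive intermediate. EDN1 is the main endothelin of blood vessel endothelium and contracts smooth muscle, that of the uterus included. EDNRA is the receptor of smooth muscle and binds EDN1 and EDN2 better than EDN3. EDNRB binds all 3 peptides, and on endothelium it releases nitric oxide and clears EDN1 from the blood. In mice EDN3 and EDNRB also guide neural crest cells that become melanocytes and gut neurons.

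Levels are given in counts-per-million units (CPM) on library sizes scaled by edgeR's trimmed mean of M-values. They compare libraries for 1 gene, and not different genes, because no transcript lengths were used. Library totals ran from 31925520 to 62703770 counts, so that 3 counts, the detection floor of a library, stood for 0.049 to 0.0886 CPM. In tissue RNA, fewer cells of a type and less RNA per cell cannot be told apart. A pair of libraries went against their labels. The library of ovary day 1 individual 3 held ADIPOQ, a fat cell hormone, at 1830 CPM, and FSHR, the receptor of granulosa cells for follicle-stimulating hormone, at 0.0809 CPM. That of uterus month 4 individual 5 held HOXA10, a uterine patterning gene, at 3.19 CPM and ELN, which encodes elastin, at 11500 CPM. Ovary month 4 individual 5 stood apart through STAR, the cholesterol carrier of steroid-making cells, at 2890 CPM.

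EDN1 had its lowest uterine levels at day 1 and its highest at months 4 and 6. At day 1 the 5 uteri held 4.54, 5.7, 3.74, 3.69 and 3.29 CPM. The values were 9.51, 11.5, 6.14, 12.1 and 9.57 CPM at month 2, and 31.3, 10.6, 12.5, 16.1 and 26.4 CPM at month 4. At month 6 they were 12.5, 41.8, 15.7, 17.6 and 14.6 CPM. All month 2 uteri lay above all day 1 uteri, and so did all month 6 uteri, while months 4 and 6 overlapped. Such a complete separation upwards was seen in 2.52% of the 18789 genes tested for month 2 and in 2.44% for month 6. Because EDN1 was chosen for this pattern, nothing is read from that share.

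The group mean of EDN1 was 20.4 ± 12.1 CPM in uteri of month 6 against 4.19 ± 0.96 CPM at day 1 (SD, n = 5 each). The log2 fold change was 2.26 ± 0.35 (SE). Most of it lay in the steps to month 2 (1.20 ± 0.34) and month 4 (0.98 ± 0.34), and the last step was 0.09 ± 0.34. Month 6 individual 2 had the highest value, and without it the month 6 mean was 15.1 ± 2.12 CPM (n = 4) and the fold change from day 1 was 1.83. Without month 4 individual 5, the library poor in uterine genes, the month 4 mean was 17.6 ± 9.38 CPM (n = 4), against 19.4 ± 9.02 CPM with it.

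Summed levels of marker genes also had different ranges at these ages of the uterus, and their part in the EDN1 values was not tested. The 14 endothelial markers summed to between 604 and 992 CPM in uteri of month 6, against 448 to 764 CPM at day 1. The 12 smooth muscle markers summed to between 2570 and 5865 CPM at month 6, against 1453 to 3467 CPM at day 1. The 12 epithelial markers summed to 722 to 1559 CPM at month 6 against 1095 to 2615 CPM at day 1. At month 2 the endothelial markers summed to 732 to 917 CPM, the smooth muscle markers to 1539 to 3283 CPM and the epithelial markers to 584 to 1123 CPM. All these ranges overlapped those of day 1. The 8 markers of T and B lymphocytes summed to 21.2 to 37.5 CPM at month 2 and 13.3 to 31.8 CPM at month 6, against 7.13 to 16.5 CPM at day 1, so that month 2 did not overlap day 1. The median log2 fold change of the 7 lymphocyte markers tested was 1.86 at month 2 and 1.63 at month 6. No gene of these 4 lists was called at month 2 or month 6 against day 1, beside 0.016% of all genes at month 2 and 1.42% at month 6. With so few calls over all genes, nothing is read from that absence.

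In the ovary the level of EDN1 was 7.5 ± 2.96 CPM at day 1, 9.16 ± 4.38 at month 2, 8.18 ± 4.97 at month 4 and 7.41 ± 3.26 at month 6 (SD, n = 5 each). Single ovaries ranged from 3.56 to 17 CPM, and the 4 ages overlapped. From day 1 to month 6 the log2 fold change was 0.01 ± 0.42 (edgeR quasi-likelihood test, adjusted p = 0.993), in a comparison in which 0.0763% of all genes were called. Calls required a log2 fold change of 1 or more in either direction, and an adjusted p (Benjamini-Hochberg, over all genes of the fit) below 0.05. The top value, 17 CPM, belonged to month 4 individual 5, rich in STAR, and without it that age averaged 5.98 ± 0.80 CPM (n = 4).

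The order of the organs for EDN1 differed with age. At day 1 the uteri held 4.19 ± 0.96 CPM and the ovaries 7.5 ± 2.96 CPM (log2 -0.84 ± 0.39), with overlap. At month 6 every uterus lay above every ovary, but narrowly, with uteri from 12.5 CPM upwards and ovaries from 3.81 to 12.4 CPM (log2 1.46 ± 0.40). Such a separation was seen in 3.85% of genes. Because EDN1 was chosen for its rise in the uterus, nothing is read from that share. Across the 8 group means the order ran from uterus month 6 and uterus month 4, through uterus month 2 and the 4 ovary groups, down to uterus day 1. Only the step between uterus month 4 and uterus month 2 was wider than the larger SD of the 2 neighbours. The change from day 1 to month 6 was greater in the uterus than in the ovary by 2.30 ± 0.56 on the log2 scale.

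**Figure D1:**
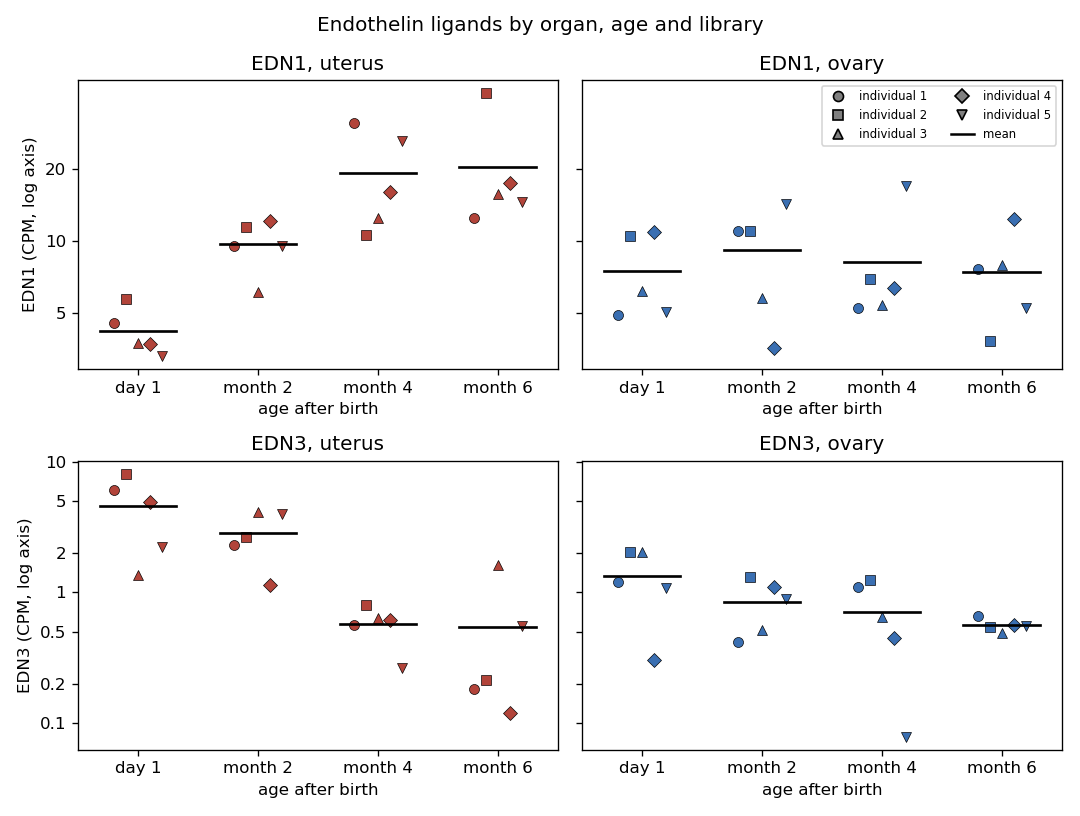
EDN1 (top) and EDN3 (bottom) in CPM on a log axis, by age, in uterus (left, red) and ovary (right, blue). Each marker is 1 library, its shape the individual number, and black bars are means of 5 libraries. In the uterus EDN1 averaged 4.19 CPM at day 1 and 20.4 CPM at month 6 while EDN3 averaged 4.53 and 0.54 CPM.

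EDN3 fell in the uterus. The 5 uteri of month 6 held 0.181, 0.213, 1.63, 0.12 and 0.555 CPM, against 6.09, 8.08, 1.36, 4.89 and 2.23 CPM at day 1. Uteri of month 6 were lower except individual 3, which lay just above the lowest day 1 uterus. The log2 fold change was -3.06 ± 0.66 (SE, n = 5 each), and EDN3 was called lower (edgeR, adjusted p = 0.0286). It was the single call among the 4 family members tested there, where 1.42% of all genes were called and 0.756% were called lower.

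Most of the difference in EDN3 lay between months 2 and 4. At month 2 the uteri held 2.28, 2.65, 4.08, 1.14 and 4 CPM, and at month 4 they held 0.561, 0.796, 0.64, 0.616 and 0.265 CPM. Every month 4 uterus was thus below every month 2 uterus, as were 0.617% of genes. The log2 fold change of that step was -2.30 ± 0.65, which did not pass over all genes (edgeR, adjusted p = 0.546), and 0% of genes were called in it. DESeq2 gave -2.29 (adjusted p = 0.076). The steps from day 1 to month 2 (-0.69 ± 0.61, adjusted p = 0.684) and from month 4 to month 6 (-0.07 ± 0.63, adjusted p = 0.974) did not pass either. Without month 4 individual 5 the step between months 2 and 4 was -2.12 ± 0.69.

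The epithelial markers given above had a lower mean sum at month 6 than at day 1 (1035 against 1669 CPM), with overlapping ranges. Their median log2 fold change was -1.11 to month 2, -0.40 to month 4 and 0.82 to month 6, and their part in the EDN3 values was not tested. The call for EDN3 was kept in 5 of the 10 fits that left out 1 library. It was lost without day 1 individual 1 (adjusted p = 0.0548) or 2 (0.0601) and without month 6 individual 1 (0.0621), 2 (0.0719) or 4 (0.057), with log2 fold changes from -2.76 to -2.93. Without month 6 individual 3, the high one, the fold change was -4.08 (adjusted p = 0.00893). A fit of those age groups alone gave -3.06 with an adjusted p = 0.124, and DESeq2 gave -3.07 with an adjusted p = 8.9e-05.

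In the ovary EDN3 averaged 1.33 ± 0.73 CPM at day 1, 0.84 ± 0.37 at month 2, 0.70 ± 0.47 at month 4 and 0.56 ± 0.06 at month 6 (SD, n = 5 each). From day 1 to month 6 the log2 fold change was -1.20 ± 0.57 (edgeR, adjusted p = 0.353), with overlap between the ages. Without day 1 individual 3, the library rich in fat genes, it was -0.99 ± 0.60. The log2 fold change in the uterus minus that in the ovary was -1.82 ± 0.86, which did not pass (edgeR, adjusted p = 0.424, 0.234% of genes called).

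The day 1 uteri listed above, from 1.36 to 8.08 CPM of EDN3, stood against ovaries at 1.2, 2.05, 2.04, 0.304 and 1.07 CPM. The lowest uterus lay below the highest pair of ovaries and the other uteri lay above all ovaries. EDN3 was called higher in the uterus at day 1, at 4.53 ± 2.76 CPM, than in the ovary, at 1.33 ± 0.73 CPM (log2 1.77 ± 0.61, edgeR, adjusted p = 0.0412, n = 5 each). The uterus was higher in 23 of 25 pairs. In that comparison 3.94% of genes were called higher in the uterus. Epithelial markers summed to between 1095 and 2615 CPM in those uteri, against 40.7 to 1396 CPM in the ovaries, and their part was not tested. The call was lost without uterus individuals 1 (adjusted p = 0.0844), 2 (0.123) or 4 (0.065) and without ovary individuals 1 (0.0744), 4 (0.107) or 5 (0.0916). It was also lost with no filter on low counts (adjusted p = 0.05005), with the day 1 groups alone (adjusted p = 0.108) and with the organs paired by age and individual number. Without ovary individual 3 and uterus month 4 individual 5 it stood at 2.02 ± 0.67 (adjusted p = 0.026). At month 6 the uterus held 0.54 ± 0.63 CPM and the ovary 0.56 ± 0.06 CPM (log2 -0.05 ± 0.61, adjusted p = 0.981).

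EDN2, which in rodents is made briefly by granulosa cells at ovulation, was close to undetected. It did not pass the filter on low counts in the uterus, ovary or joint fit, so it is given no fold change. The day 1 ovaries held 11, 13, 0, 8 and 6 counts, and the month 4 ovaries held 0, 36, 2, 2 and 0. At month 2 the counts were 0, 0, 8, 0 and 0, and in the 5 ovaries of month 6 they were all 0, which allows up to 0.0119 CPM over the group (3 counts, counting error only). The uterus held 9 counts in 1 of 5 libraries at day 1, 5 counts in 1 library at month 2, none at month 4 and 1 count at month 6. Its highest level anywhere was 0.733 CPM, in ovary month 4 individual 2.

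Set against each other within a library, the EDN1 and EDN3 counts differed more at each later age of the uterus. The log2 ratio of EDN1 to EDN3 counts averaged 0.14 ± 0.86 at day 1, 1.89 ± 1.06 at month 2, 5.03 ± 1.17 at month 4 and 5.78 ± 1.80 at month 6 (SD, n = 5 each). All uteri of months 4 and 6 but month 6 individual 3, at 3.27, lay above the highest month 2 uterus, at 3.41. In the ovary the group means stayed between 2.68 and 3.87. The ratio is not corrected for gene length, so 0 does not mark equal abundance, and it is not tested because it contains EDN1.

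**Figure D2:**
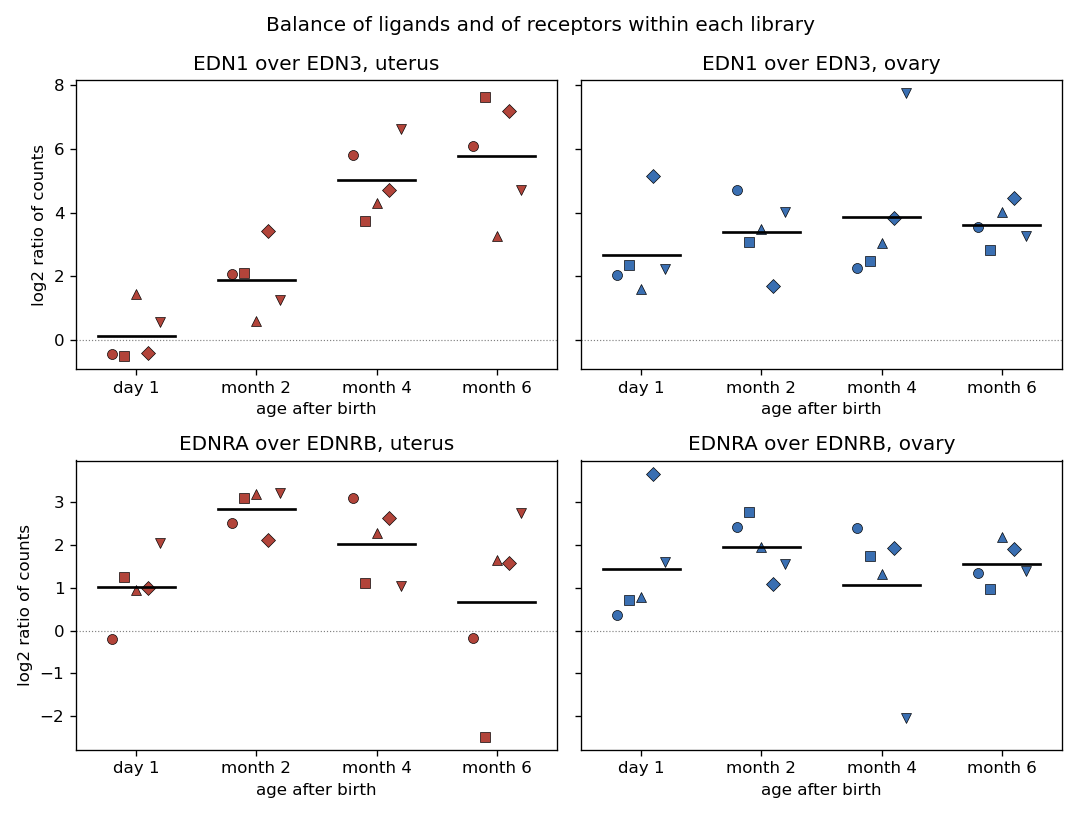
Log2 ratio of counts within each library, EDN1 over EDN3 (top) and EDNRA over EDNRB (bottom), by age, in uterus (left, red) and ovary (right, blue). Markers are libraries with the same shapes for individuals as in the plot of the ligands, and bars are means of 5. In the uterus the ligand ratio averaged 0.14 at day 1 and 5.78 at month 6, and the receptor ratio was highest at month 2.

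EDNRA, the smooth muscle receptor, did not pass any test of age or organ. Its uterine mean was 45.3 ± 9.86 CPM at day 1, 60.5 ± 16.1 at month 2, 78.5 ± 25.8 at month 4 and 54.2 ± 22.7 at month 6 (SD, n = 5 each). The month 4 mean was 70.3 ± 20.8 CPM (n = 4) without individual 5, which held the highest value, 112 CPM. From day 1 to month 6 the log2 fold change was 0.24 ± 0.29 (edgeR, adjusted p = 0.722). In the ovary the means were 48.6 ± 16.5, 34.5 ± 7.36, 30.9 ± 14.1 and 33.8 ± 9.79 CPM in age order, with a fold change to month 6 of -0.50 ± 0.30 (adjusted p = 0.486). At month 6 the uterus exceeded the ovary by 0.68 ± 0.30 (adjusted p = 0.149, higher in 20 of 25 pairs), and at day 1 the difference was -0.10 ± 0.30 (adjusted p = 0.875). The change over the ages was greater in the uterus by 0.78 ± 0.42 (adjusted p = 0.513).

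EDNRB, the receptor open to all 3 peptides, had a larger SD relative to its mean than EDNRA at 4 of 4 ages of the uterus. In the uterus it was at 44, 16.9, 20.8, 31.1 and 11.1 CPM at day 1 and at 7.91, 4.94, 8.56, 15.3 and 7.66 CPM at month 2. At month 4 it was at 8.18, 22.2, 13.6, 15.9 and 54.6 CPM, and at month 6 at 50.9, 127, 19.7, 28.2 and 8.52 CPM. Month 2 held the lowest uterine mean, 8.88 CPM, and the month 6 uteri were the most spread. No step passed. The log2 fold changes were -1.50 ± 0.61 to month 2 (edgeR, adjusted p = 0.344), 1.37 ± 0.61 to month 4 (0.724) and 1.03 ± 0.60 to month 6 (0.53). Those steps called 0.016%, 0% and 0% of genes. From day 1 to month 6 the change was 0.89 ± 0.60 (adjusted p = 0.463). Without month 4 individual 5 the step to month 4 was 0.74 ± 0.58 and the step to month 6 was 1.66 ± 0.60, and without month 6 individual 2 the change from day 1 to month 6 was 0.09.

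EDNRB also had its lowest ovarian mean, 9.04 CPM, at month 2. The ovaries held 20.2, 23.9, 30.3, 5.49 and 18.4 CPM at day 1, then 8.42, 5.61, 8.67, 12.1 and 10.4 CPM at month 2. Month 4 gave 6.87, 15.8, 9.61, 6.45 and 70.9 CPM and month 6 gave 8.13, 20.8, 10, 9.22 and 10.8 CPM. The top value was again in month 4 individual 5, and without it that age averaged 9.69 ± 4.32 CPM (n = 4). The log2 fold changes were -1.09 ± 0.57 to month 2 (edgeR, adjusted p = 0.693), 1.3 ± 0.57 to month 4 (0.553) and -0.89 ± 0.57 to month 6 (adjusted p = 1). In those steps 0.00508%, 0% and 0% of genes were called. Without month 4 individual 5 the step to month 4 was 0.14 and the step to month 6 was 0.26.

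At month 6 EDNRB was called higher in the uterus, at 46.9 ± 47.4 CPM, than in the ovary, at 11.8 ± 5.11 CPM (log2 1.99 ± 0.62, edgeR, adjusted p = 0.0319, n = 5 each). The organs overlapped and the uterus was higher in 20 of 25 pairs. Among all genes 4.06% were called higher in the uterus. Without uterus individual 2 the fold change was 1.19 (adjusted p = 0.25). The call was also lost without uterus individual 1 (0.0505) or without ovary individuals 1 (0.0665), 3 (0.0749), 4 (0.0654) or 5 (0.0691), and with the month 6 groups alone (0.0893). Smooth muscle markers summed to 2570 to 5865 CPM in those uteri, against 1128 to 3895 CPM in the ovaries, and endothelial markers to 604 to 992 CPM against 464 to 687 CPM. Epithelial markers summed to 722 to 1559 CPM in the uteri, with the top uterine sum in individual 2, against 43.3 to 1949 CPM in the ovaries. The part of these markers was not tested. At day 1 the organs differed by 0.34 ± 0.60 (adjusted p = 0.778). The change over the ages was greater in the uterus by 1.66 ± 0.86, which did not pass (adjusted p = 0.486).

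**Figure D3:**
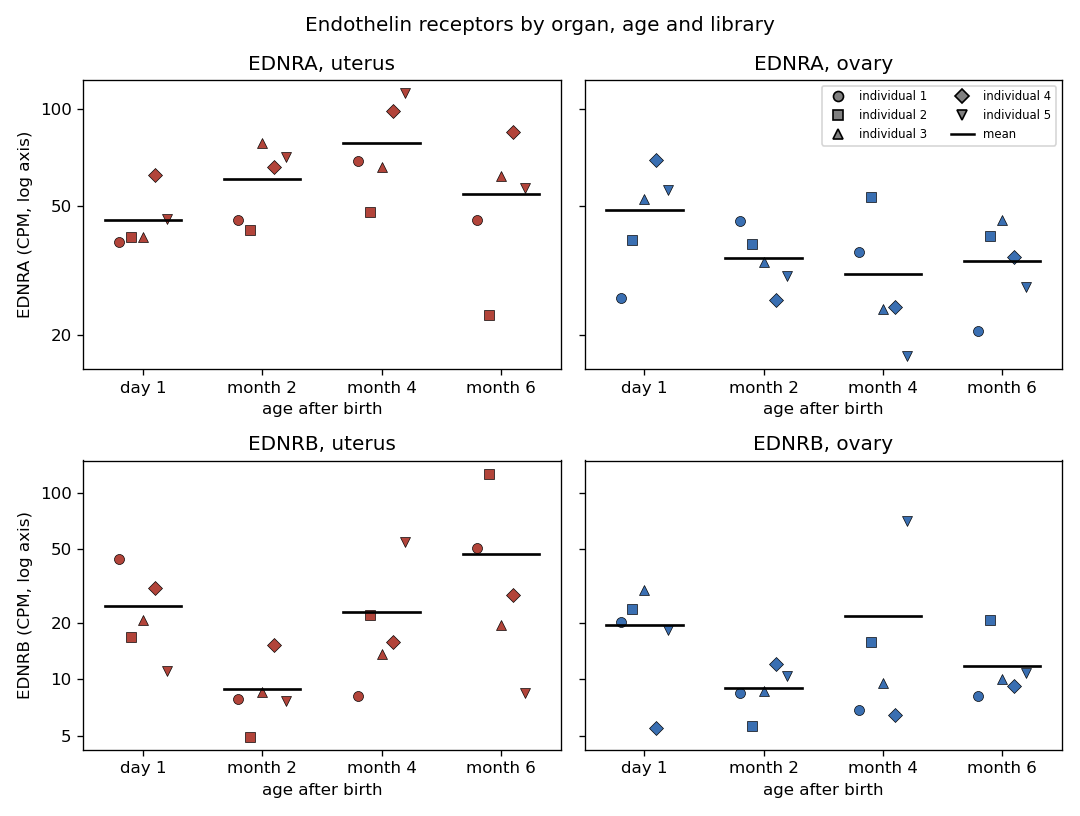
EDNRA (top) and EDNRB (bottom) in CPM on a log axis, by age, in uterus (left, red) and ovary (right, blue). Each marker is 1 library, its shape the individual number, and bars are means of 5. EDNRB spans 8.52 to 127 CPM among the month 6 uteri and reaches 70.9 CPM in 1 month 4 ovary.

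The log2 ratio of EDNRA to EDNRB counts averaged 1.01 ± 0.80 at day 1, 2.82 ± 0.49 at month 2, 2.02 ± 0.92 at month 4 and 0.67 ± 2.04 at month 6 in the uterus (SD, n = 5 each). All month 2 uteri lay between 2.11 and 3.21, above all day 1 uteri, which reached 2.03 at most. Uterus month 6 individual 2 was at -2.47, with the lowest uterine EDNRA, 22.9 CPM, and the highest uterine EDNRB, 127 CPM. In the ovary month 4 individual 5 stood at -2.05 and all others lay between 0.36 and 3.66.

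ECE1 was called between the organs and in no test of age. Its uterine means were 34.5 ± 9.25, 34.8 ± 9.58, 43.3 ± 22.7 and 31.9 ± 7.48 CPM in age order (SD, n = 5 each), and 34.3 ± 12 CPM (n = 4) at month 4 without individual 5. From day 1 to month 6 the log2 fold change was -0.13 ± 0.29 (edgeR, adjusted p = 0.864). The ovary means were 110 ± 132, 89.1 ± 23.4, 105 ± 102 and 90 ± 40.3 CPM, with a change to month 6 of -0.29 ± 0.60 (adjusted p = 0.885). Single libraries stood far above the rest at day 1 and month 4. Day 1 individual 4 was at 345 CPM, against at most 72.5 CPM in the other day 1 ovaries, and month 4 individual 5 was at 287 CPM, against at most 76.2 CPM. Without them the means were 50.7 ± 14.9 CPM at day 1 and 59.8 ± 12.3 CPM at month 4 (n = 4 each). Without day 1 individual 4 the fold change from day 1 to month 6 was 0.85 (adjusted p = 0.386).

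At month 6 the uteri held 20.3, 35.6, 28.6, 39.1 and 35.6 CPM of ECE1, against 43.9, 54.4, 125, 93.6 and 133 CPM in the ovaries. Every uterus was below every ovary, a separation shown by 5.01% of genes. ECE1 was called lower in the uterus (log2 -1.50 ± 0.50, edgeR, adjusted p = 0.0434), as were 6.05% of genes. This call was lost without uterus individuals 1 (adjusted p = 0.103), 2 (0.074), 3 (0.0782), 4 (0.0582) or 5 (0.066) or ovary individuals 3 (0.108), 4 (0.0628) or 5 (0.114). With no filter on low counts it was also lost (adjusted p = 0.0504). The fold change stayed between -1.31 and -1.67 in the 10 fits without 1 library. Granulosa markers summed to 23.2 to 155 CPM in those uteri, against 220 to 1807 CPM in the ovaries, and their part was not tested.

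At day 1 the uteri held 28.4, 49.5, 25.9, 36.2 and 32.7 CPM of ECE1, against 47.6, 43.5, 39.4, 345 and 72.5 CPM in the ovaries. The uterus was higher in 3 of 25 pairs. ECE1 was called lower in the uterus (log2 -1.67 ± 0.50, edgeR, adjusted p = 0.0166), as were 10.3% of genes. Without ovary individual 4 the fold change was -0.56 (adjusted p = 0.415), and with the day 1 groups alone the call was lost (adjusted p = 0.125). With the organs paired by age and individual number the call was lost as well, at a fold change of -1.06 (adjusted p = 0.065). Granulosa markers summed to 50.2 to 117 CPM in those uteri, against 60.6 to 2103 CPM in the ovaries, with the top sum in ovary individual 4. Of the 12 granulosa markers 9 were called lower in the uterus, and their part in the ECE1 values was not tested. Without ovary individual 3 and uterus month 4 individual 5 it was -1.82 ± 0.49 (adjusted p = 0.00609). The difference between the organs in the change to month 6 was 0.17 ± 0.69 (adjusted p = 0.986).

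**Figure D4:**
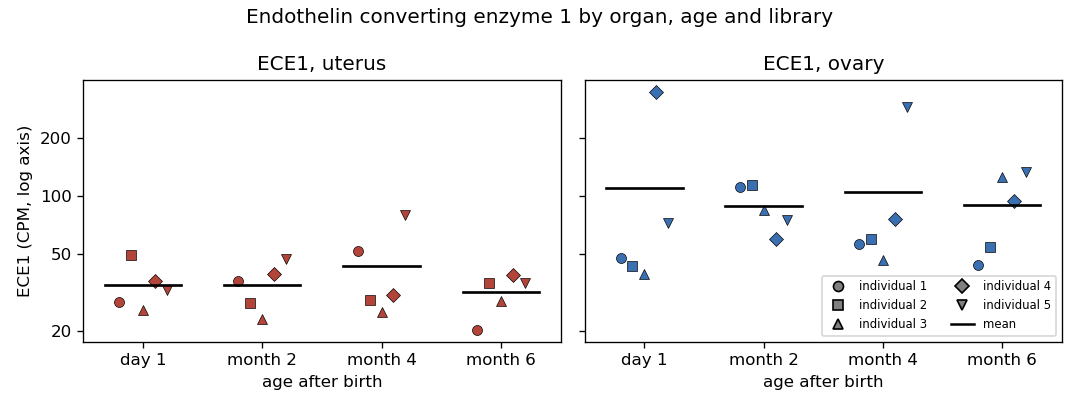
ECE1 in CPM on a log axis, by age, in uterus (left, red) and ovary (right, blue). Each marker is 1 library, its shape the individual number, and bars are means of 5. All month 6 uteri, at 39.1 CPM or less, lie below all month 6 ovaries, at 43.9 CPM or more, and ovary day 1 individual 4 and month 4 individual 5 reach 345 and 287 CPM.

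Of the 4 members tested, 1 was called between month 6 and day 1 in the uterus (EDN3, with 1.42% of all genes called). Between the organs 2 were called at day 1 (EDN3 and ECE1, with 14.2%) and 2 at month 6 (EDNRB and ECE1, with 10.1%). In the ovary none of the 5 tested members was called between month 6 and day 1, nor in any of the 3 successive steps (adjusted p from 0.553 to 1). Over all genes 0.0763% were called there between month 6 and day 1, and 0.00508%, 0% and 0% in the steps. In the uterus none of the 12 tests of the successive steps passed (adjusted p from 0.344 to 0.994), beside 0.016%, 0% and 0% of all genes. With so few calls over all genes, nothing particular to the family is read from the absence of calls. Both age courses share their day 1 and month 6 libraries with the comparisons between organs, so these counts are not independent.

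**Figure D5:**
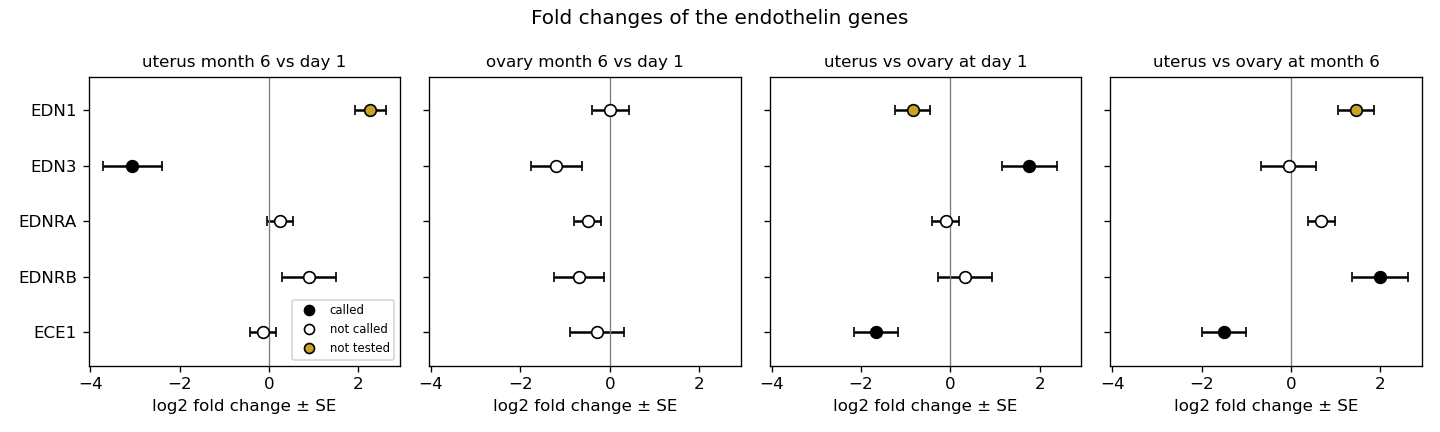
Log2 fold changes with SE bars for 5 endothelin genes in 4 comparisons, where positive values mean higher at month 6 or higher in the uterus. Filled black points were called, open points were not, and gold points (EDN1 in comparisons that hold uterus libraries) were not tested. EDN1 and EDN3 lie on opposite sides of 0 between month 6 and day 1 in the uterus, at 2.26 and -3.06.

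Particular libraries carried extreme values of several members at once. Ovary month 4 individual 5, rich in STAR, held the highest ovarian EDN1 (17 CPM) and EDNRB (70.9 CPM) and the lowest ovarian EDN3 (0.0788 CPM) and EDNRA (17.2 CPM). Its endothelial markers summed to 2141 CPM, against at most 852 CPM in the other month 4 ovaries. Ovary day 1 individual 4 held the highest ovarian ECE1 and EDNRA (345 and 69.2 CPM) and the lowest EDNRB (5.49 CPM). Its granulosa markers summed to 2103 CPM, against at most 782 CPM in the other day 1 ovaries. Uterus month 4 individual 5, poor in uterine genes, held the highest uterine EDNRA (112 CPM) and ECE1 (79.4 CPM), with endothelial markers at 2135 CPM and smooth muscle markers at 13090 CPM. Uterus month 6 individual 2 held the highest uterine EDN1 (41.8 CPM) and EDNRB (127 CPM) and the lowest uterine EDNRA (22.9 CPM). Its ovulation and luteal genes summed to 2786 CPM, against at most 1018 CPM in the other month 6 uteri. PTGS2, a gene of that list, averaged 346.8 ± 715 CPM over the month 6 uteri (SD, n = 5). STAR, also in the list, was at 0.464 CPM in individual 2, so no luteal state is read from that sum. The part of these markers in the endothelin values was not tested.

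The genes most like EDN1 in the uterus, by Pearson correlation of log2 CPM over the 20 uterus libraries among 14322 named genes, were NDEL1 (r = 0.904), CLIC2 (0.887), SH3TC1 (0.867), THBS1 (0.857) and PRR16 (0.845). Without month 4 individual 5 these genes stood at ranks 2, 3, 10, 13 and 5, in the same order. NDEL1 is a partner of the motor dynein, CLIC2 an intracellular chloride channel protein and THBS1 the matrix glycoprotein thrombospondin 1. THBS1 averaged 355.5 CPM in uteri of month 6 and 91.6 CPM at day 1, and PRR16 124 and 17.4 CPM. Those nearest to EDN3 were IGSF3 (0.896), COL23A1, a transmembrane collagen (0.895), and FBN3, a fibrillin (0.894). FBN3 averaged 0.525 CPM at month 6 against 9.64 CPM at day 1. EDN1 and EDN3 themselves had an r of -0.747. These correlations are descriptions over libraries that share the age course, and they carry no p-value.

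For the other members in the uterus, EDNRA was most like MGAT4A (0.801), ZC3H12D (0.789) and CCSAP (0.785), and EDNRB was most like TMX3 (0.884), ASPG (0.85) and DCAF11 (0.848). ECE1 was nearest to the membrane skeleton gene SPTBN1 (0.874), ARAP3 (0.873) and EIF4EBP2 (0.871). Without month 4 individual 5 these 3 genes stood at rank 51 (r = 0.78), rank 31 (0.798) and rank 19 (0.813) of the named genes, in the same order. In the ovary, among 14661 named genes and 20 libraries, EDN1 was nearest to TMEM158 (0.814), SPTLC2 (0.768), PRDM1 (0.707), NUAK1 (0.7) and TRIM44 (0.687). Ovarian EDN3 was nearest to VSNL1 (0.877), SLITRK6 (0.865) and WIF1, a secreted WNT inhibitor (0.839), and EDNRA to BNIP3 (0.822), ZNHIT6 (0.81) and FOLH1B (0.799). EDNRB there was nearest to the kinase gene FYN (0.92), to CALCRL, the shared receptor of adrenomedullin and CGRP (0.916), and to VAMP5 (0.904). Ovarian ECE1 followed ATP7B, a copper transporter (0.936), MGAT5 (0.883) and DHX33 (0.882), and its r with EDN3 was -0.777. Without day 1 individual 3, PRDM1, NUAK1 and TRIM44 stood at ranks 14, 18 and 22 for ovarian EDN1. FOLH1B then stood at rank 35 for EDNRA, and MGAT5 and DHX33 at ranks 14 and 16 for ECE1. TMEM158, SPTLC2, FYN and ATP7B kept their ranks.

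Other genes of endothelin processing and breakdown were few in the fits. Of 7 listed peptidases and relatives, 6 were in the table and 3 were tested in each organ. None was called between month 6 and day 1 in either organ, beside 1.42% of all genes in the uterus and 0.0763% in the ovary. With so few calls over all genes, nothing is read from that absence. At day 1, 4 were tested between the organs. Over all genes 14.2% were called there and 10.1% at month 6, so nothing particular to the list is read from the calls below. MME (neprilysin), which degrades endothelins, was higher in the uterus at 270 ± 193 CPM than in the ovary at 65.2 ± 41.8 CPM (log2 2.05 ± 0.67, edgeR, adjusted p = 0.0287). PHEX, a relative known from bone mineralization, was lower at 0.149 ± 0.117 CPM against 31.2 ± 19.1 CPM (log2 -7.69 ± 1.02, adjusted p = 4.56e-06). That uterine mean lay near the detection floor, so the size of this fold change is uncertain. At month 6 PHEX was again called lower in the uterus, at 0.0849 ± 0.0807 CPM against 12.6 ± 4.85 CPM (adjusted p = 2e-05), and no fold change is given because the uterine mean lay at the detection floor. KEL, an enzyme able to cut the EDN3 precursor, was at 1.03 ± 0.80 CPM in uteri of month 6 against 0.0239 ± 0.0535 CPM in the ovaries, a mean below the detection floor of a library, so neither a fold change nor a test is given.

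The 30 listed genes of endothelin receptor signalling, such as G proteins and phospholipases C, are known to pass the signal on inside cells. All 29 that were in the table were tested. Between month 6 and day 1 none was called in either organ, beside 1.42% of all genes in the uterus and 0.0763% in the ovary. The median log2 fold change of the 29 was -0.02 in the uterus and 0.01 in the ovary, beside 0.01 and -0.03 over all genes. Between the organs at day 1, 2 were called higher in the uterus, the kinase gene PRKCD (1.22 ± 0.29, edgeR, adjusted p = 0.00244) and the arrestin gene ARRB1 (1.43 ± 0.41, adjusted p = 0.0123). The calcium channel gene ITPR2 was called lower (-1.32 ± 0.32, adjusted p = 0.00285). Over all genes 3.94% were called higher and 10.3% lower there, so nothing particular to the list is read from these calls. At month 6 none of the 29 was called between the organs, beside 10.1% of all genes, and nothing particular to the list is read from that absence.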

How the data were processed

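Uterus and ovary tissue of goats, 5 libraries for each of 8 groups, were measured by bulk RNA sequencing. The authors deposited raw counts per gene as whole numbers, with no normalization, and library totals ran from 31925520 to 62703770 counts. The submitters' processing notes list the tools RSEM 1.3.0, StringTie 1.3.3b, HISAT2 and fastp 0.23.1, without saying what each did. The genome build, the annotation and whether counting used strand were not given in the sources used here. All 28910 NCBI gene numbers matched a symbol of RefSeq assembly ARS1.2, used for names only. The labels speak of individuals, so libraries were taken as animals. If they were not separate animals, p-values measure only the spread between samples. No pair of libraries of a group agreed within sampling noise (smallest chi-square per degree of freedom 83.5 over 80 pairs).

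Genes were tested with edgeR 4.0.16 in R 4.3.3 (TMM scaling, filterByExpr, robust quasi-likelihood fit, two-sided). Each organ's 20 libraries were fitted together for age, and all 40 for contrasts between organs. The filter kept 18789, 19671 and 20518 genes in the uterus, ovary and joint fits, and 5 of the 6 members in each. Calls needed an adjusted p below 0.05 (Benjamini-Hochberg) and a log2 fold change of 1 or more in size. SEs were taken from the fold change and the test statistic. Likeness used log2 CPM with a prior count of 2. The alternatives were RLE scaling, no filter, DESeq2 1.42.0, a replicate block, only the groups compared, leaving out the libraries at odds with their labels, and leaving out each library. The replicate block was the individual number in fits of 1 organ, and in joint fits it paired the organs of the same age and number. The fits were also run on simulated counts with the same dispersion for every gene and no outlying library. The real libraries differed in both, so nothing about the calls is read from that run. The genes named are the 6 members, the genes most like each, and called genes of the lists. Members and lists were chosen with earlier results of these data known.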

Additional observations from a re-analysis of the deposited data

Results flagged for a closer look

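Among the 40 groups of 5 values screened (5 genes with levels in 8 groups), 7 held a library far from the other 4, by a gap to the nearest value of more than 0.71 of the group's range. That limit flags about 1 group in 20 when values are normally distributed. The CPM values were screened without a log scale and several flags came from 1 library, so the 7 are not set against that share. EDN1 in uterus month 6 individual 2 was at 41.8 CPM, with the next at 17.6 CPM. EDN1 in ovary month 4 individual 5 was at 17 CPM, with the next at 6.92 CPM. The same library held EDNRB at 70.9 CPM, with the next at 15.8 CPM, and ECE1 at 287 CPM, with the next at 76.2 CPM. EDN3 in uterus month 6 individual 3 was at 1.63 CPM, with the next at 0.555 CPM. EDNRB in ovary month 6 individual 2 was at 20.8 CPM, with the next at 10.8 CPM. ECE1 in ovary day 1 individual 4 was at 345 CPM, with the next at 72.5 CPM.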

How the results depend on the processing

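Of 642 alternative values for 37 fold changes of the family, 582 kept their direction and side of the call, but most of these fold changes were not called to begin with. Of the 5 that were, leaving out 1 library ended the call in 5 of 10 fits for EDN3 with age in the uterus, in 6 for EDN3 and 1 for ECE1 between the organs at day 1, and in 6 for EDNRB and 8 for ECE1 at month 6. RLE scaling changed no direction or call of the 37. Leaving out the libraries at odds with their labels turned 1 direction, that of EDN1 in the ovary between month 6 and day 1 (-0.053). Same-numbered libraries of the organs at 1 age deviated together in 9 of 20 pairs (r over 0.1; median 0.071), against 15 of 80 pairs with other numbers (median -0.00634). The labels do not say whether a number marks 1 goat, and these values do not settle it. The numbers were not treated as pairs in the main fits. With the organs paired by age and number, the calls at day 1 between them were lost for EDN3 (1.76, adjusted p = 0.0824) and ECE1 (-1.06, adjusted p = 0.065). In that fit the difference between organs in the change of ECE1 turned to -0.34. With the number as a block within the ovary, ECE1 turned to 0.023 there. Leaving out 1 library gave fold changes from -0.26 to 0.18 for EDN1 in the ovary between month 6 and day 1, -0.51 to 0.85 for ECE1 there, -0.22 to 0.018 for ECE1 in the uterus, and -0.94 to 0.38 for ECE1 in the difference between organs. Ranges that crossed 0 were also those of month 6 against month 4 in the uterus for EDN1 (-0.35 to 0.31) and EDN3 (-1.09 to 0.18) and in the ovary for EDNRB (-1.22 to 0.26), EDN3 between the organs at month 6 (-1.06 to 0.20) and EDNRA between them at day 1 (-0.26 to 0.063).

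Counts of called genes moved widely; apart from fewer libraries or genes in a fit, the cause was not tested. In the uterus between month 6 and day 1, 266 genes were called, 946 with DESeq2, 127 with the block, 81 with those groups alone, 496 without the libraries at odds with their labels, and 76 to 275 without 1 library. In the ovary it was 15, against 655, 6, 0 and 322, and 6 to 322. For the difference between organs it was 48, against 321, 1, 7 and 207, 23 with no filter, and 6 to 175. Between the organs 2913 were called at day 1 (1203 with those groups alone, 2472 to 3519 without 1 library) and 2075 at month 6 (1214, and 1552 to 2162). For month 2 against day 1 it was 3 in the uterus (273 with DESeq2, 0 with those groups alone, 39 without the libraries at odds, 1 to 12 without 1 library) and 1 in the ovary (44, then 0 in those settings and with the block, and 0 to 2). For month 4 against month 2 edgeR called 0 in the uterus (1244 at an unadjusted p under 0.05, 23 with DESeq2, 0 to 0 without 1 library) and 0 in the ovary (1751, 24, and 0 to 1). For month 6 against month 4 it called 0 in the uterus (2028, 53, and 0 to 0) and 0 in the ovary (520, 4, and 0 to 1). At these depths EDN2 rests on at most 36 counts in a library, and EDN3 on as few as 4 in an ovary and 6 in a uterus.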

Other observations

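Of 32 listed genes of other vasoactive peptides and their receptors, 24 were tested in the uterus, and 1 was called between month 6 and day 1, where 1.42% of all genes were. This was ADM, which encodes the vessel-widening peptide adrenomedullin, at 5.86 ± 4.36 CPM at month 6 against 1.22 ± 0.27 CPM at day 1 (log2 2.23 ± 0.53, edgeR, adjusted p = 0.0412, n = 5 each). The median over the 24 was 0.40, beside 0.01 over all genes. In the ovary 26 were tested and none was called between these ages, beside 0.0763% of all genes. Between the organs at day 1, 27 were tested and 6 called, beside 14.2% of all genes. The angiotensin receptor gene AGTR1 (log2 1.34 ± 0.45, adjusted p = 0.032) and the VIP receptor gene VIPR2 (1.46 ± 0.52, adjusted p = 0.0454) were called higher in the uterus. ADM (-3.12 ± 0.50), the angiotensin precursor gene AGT (0.0845 ± 0.116 CPM against 1.70 ± 1.61 CPM in the ovary, near the detection floor), KNG1 (-2.60 ± 0.84) and UTS2R were called lower, the last at 0 counts in all 5 uteri against 6.46 ± 5.25 CPM in the ovaries (adjusted p from 4.04e-05 to 0.0263 for these 4). At month 6, 3 of 27 were called, beside 10.1% of all genes. AGTR2 (4.16 ± 1.39, adjusted p = 0.045) and RAMP3, a subunit of adrenomedullin receptors (1.98 ± 0.53, adjusted p = 0.0109), were higher in the uterus and UTS2R was lower.

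Of 16 genes of melanocytes and of gut neurons from the neural crest, where EDN3 and EDNRB act, 10 were tested in the uterus and 12 in the ovary. None was called between month 6 and day 1 in either, beside 1.42% of all genes in the uterus and 0.0763% in the ovary. RET, a receptor of the growth factor GDNF, was higher in the uterus at day 1 (36.2 ± 42 CPM against 3.98 ± 4.35 CPM in the ovary, log2 3.18 ± 0.72, edgeR, adjusted p = 0.00169, n = 5 each). At month 6 RET was again higher (3.30 ± 0.72, adjusted p = 0.0021), while GDNF (-1.57 ± 0.48, adjusted p = 0.0281) and the pigment cell gene PMEL (-2.02 ± 0.49, adjusted p = 0.00527) were lower in the uterus. Between the organs 12 of the list were tested at each of these ages. Over all genes 14.2% were called at day 1 and 10.1% at month 6, so nothing particular to the list is read from these calls.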
